A study of Mus musculus with 2 samples.

Results

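The C1q-high resting macrophages described here were 925 cells from the tumours of 4 mice. They were chosen by their expression: a tumour cell was taken when the deposited natural log value was at least 2 for both C1qa and C1qb, 0 for Hilpda, Cd3e and Cd79a, and above 0 for at most 1 of the cell cycle genes Birc5, Ube2c, Ccna2 and Cdk1. A value of 2 stands for 6.39 unique molecular identifiers (UMIs, counted mRNA molecules) per 10000 UMIs of the cell. The 925 cells were 20.5% of 4521 tumour cells, in a data set of 12458 cells that also held the tumour-draining (dLN) and a non-draining (ndLN) lymph node of each mouse. The mice were C57Bl6 animals carrying subcutaneous MC38-OVAdim tumours, a mouse colon carcinoma line that expresses ovalbumin, grown from an injected cell suspension. The 2 control mice carried floxed Havcr2 alleles (Havcr2fl/fl, called WT1 and WT2) and in the 2 others the gene had been targeted (KO1 and KO2); the sources used here name neither the Cre driver nor the exons removed, and give no age. Cells positive for CD45, the common leukocyte surface protein, were sorted with enrichment of dendritic cells, tagged by mouse and tissue with CD45 antibody oligonucleotides, and sequenced with a 5′ single-cell kit in 2 droplet channels. Channel 1 held WT1 and KO1 and channel 2 held WT2 and KO2. The study asked what loss of TIM-3, the receptor encoded by Havcr2, does to immune cells in and around a tumour.

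C1q is the recognition molecule that starts the classical complement cascade. It is assembled from the products of C1qa, C1qb and C1qc, and tissue macrophages, not the liver, are its main source. In tumours, macrophages rich in C1q are commonly found beside monocyte-derived cells that are less mature, hypoxic or dividing, and they usually carry antigen-presenting MHC class II molecules and the lipid carrier apolipoprotein E. TIM-3 is an inhibitory receptor first described on T cells and also present on macrophages and dendritic cells.

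The 3 C1q genes lie side by side on the minus strand of chromosome 4 within 18.7 kb (mm10, GENCODE M21): C1qb at chr4:136880129-136886187, C1qc at chr4:136889804-136893065 and C1qa at chr4:136895917-136898803. The RefSeq windows around the start of C1qb and C1qc (GRCm38.p6, 300 bases each, minus strand, chr4:136886151-136886450 and chr4:136892865-136893164) are shown because the levels of these genes moved together from cell to cell. Capitals mark ACTTCC, the reverse complement of GGAAGT, a core letter pattern bound by PU.1 and other ETS factors of myeloid cells.
C1qb promoter window: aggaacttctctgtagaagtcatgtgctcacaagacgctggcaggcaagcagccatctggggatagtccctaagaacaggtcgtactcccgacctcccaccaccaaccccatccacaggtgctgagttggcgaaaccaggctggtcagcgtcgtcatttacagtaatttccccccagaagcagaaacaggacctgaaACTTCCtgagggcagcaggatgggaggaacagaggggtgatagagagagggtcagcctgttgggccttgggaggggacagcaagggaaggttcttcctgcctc
C1qc promoter window: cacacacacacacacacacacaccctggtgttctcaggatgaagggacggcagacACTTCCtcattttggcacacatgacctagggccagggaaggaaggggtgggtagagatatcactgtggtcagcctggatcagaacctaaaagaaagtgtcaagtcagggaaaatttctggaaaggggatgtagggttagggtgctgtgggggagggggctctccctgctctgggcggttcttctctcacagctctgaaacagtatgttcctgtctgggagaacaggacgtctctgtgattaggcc
Each window held 1 match, at base 198 in C1qb and at base 56 in C1qc, counted from the 5′ end. Of 32851 RefSeq windows of this length, 7809 (23.8%) held the pattern on either strand, so a match in both is a description of these letters and not evidence of binding.

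The label was checked against markers that the choice had not used. Level below means the mean of UMIs per 10000 over a mouse's cells. C1qc was found in 99.1% of the members, Apoe in 96.0%, Csf1r, the receptor of the macrophage growth factor CSF1, in 92.6%, Cd68 in 93.3%, Ms4a7 in 85.5% and the F4/80 gene Adgre1 in 75.1%. Ccl12, a chemokine that attracts monocytes, was found in 62.2%. These are macrophage genes, and the name macrophage was kept. C1qc moved with C1qa and C1qb from cell to cell, so its share goes with the choice and is no independent check. In 275 tumour cells rich in Cd3e, T cells that should lack C1q, 9.82% held a C1qa UMI at a median depth of 6650 UMIs, but 2.18% reached the threshold. By level, markers of other cell types were low. The summed level of 4 T cell markers ran from 0.0223 to 0.0482 across mice, that of 5 NK cell markers from 0 to 0.0196, that of 3 B cell markers from 0.128 to 0.261 (mostly Cd79b, found in 21.8% of members), that of 4 neutrophil markers from 0.151 to 0.337 (Cxcr2 at 0), and that of 8 dendritic cell markers from 0.498 to 1.15. The sums for 2 tumour epithelial, 3 fibroblast and 4 endothelial markers did not pass 0.0194, 0.218 and 0.305. The 5 markers of classical monocytes summed to 6.62 and 9.03 in WT and 6.19 and 2.57 in KO, and 55.8% of the members held at least 1 UMI of them. This sum was lower in both KO mice than in both WT mice. Ccr2 was the marker with the highest level, and single markers did not all follow the sum: the levels of Ly6c2 and Chil3 were highest in KO1. The 4 genes past the test, Dusp1, Gbp2b, Nr4a1, Ms4a7 and Il1b are given below also over the 409 members that carried none of the 5 markers. Of these, 144 came from WT1, 43 from WT2, 166 from KO1 and 56 from KO2. Over them 67.7% of all genes tested were above 0 in KO minus WT (median 0.022), against 46.8% (median -0.0023) over all members. Differences there are thus shifted upward, and what else this choice of cells changed was not tested.

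WT1 gave 336 members, WT2 170, KO1 327 and KO2 92. Their median depth was 17357, 17406.5, 18109 and 16212 UMIs per cell, a narrow range, and 133 members had fewer than 5000 UMIs. These shallow cells held more mitochondrial RNA, with mt-Co1 at 246 UMIs per 10000 against 41.1 in the other 792 members, and 52 of them had 5% or more mitochondrial UMIs against 13 of the deeper cells. A value of 0 is easier to reach in a shallow cell, so the demand for no Hilpda favours them: 133 of 925 members but 25 of 760 Hilpda-positive C1q-high cells had fewer than 5000 UMIs. Just inside the threshold, 51 members whose lower C1q value was under 2.5 had a median of 2124 UMIs and C1qc at 14.3, and just outside, 50 cells with a lower value of 1.5 to 2 had 3634 UMIs and C1qc at 9.54. The members as a whole had C1qc at 54.8. The 2 channels shared 65 cell barcodes. No doublet caller was run, and cells with Cd3e or Cd79a were left out by the rule.

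Of 2547 tumour cells that reached the C1qa and C1qb thresholds, 925 were members, 760 held Hilpda without cycling, 349 cycled without Hilpda, 275 did both, and 238 held Cd3e or Cd79a. The members made up 19.9% of tumour cells in WT1 (95% Wilson interval 18.0 to 21.8), 16.9% in WT2 (14.8 to 19.4), 24.2% in KO1 (21.9 to 26.5) and 19.5% in KO2 (16.1 to 23.3). KO1 was the highest and KO2 lay between WT2 and WT1, so the genotypes overlapped, with means of 21.8% and 18.4% (difference 3.39 percentage points, p = 0.667, two-sided exact permutation test). With 2 mice against 2, this test cannot go below 0.333. Kept together with Hilpda-positive cells, the share was 33.9% and 32.3% in WT and 44.5% and 39.1% in KO, groups that did not overlap (p = 0.333, exact permutation test). In a further setting, tumour cells were thinned to 5000 UMIs before the choice, and the 649 of 4521 with fewer UMIs were left out. The members' share of the remaining cells was 33.6% for WT1, 30.5% for WT2, 40.4% for KO1 and 36.3% for KO2, again without overlap. It has another base than the shares above, without the shallow cells that the choice by values of 0 favours. As a share of all C1q-high cells the members made up 37.7% (WT1) and 33.7% (WT2), against 38.2% (KO1) and 31.2% (KO2), a mean difference of -0.95 percentage points in the opposite direction. The sort for CD45 with dendritic cell enrichment sets what these shares are taken of, and intervals cover counting error alone.

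**Figure D1:**
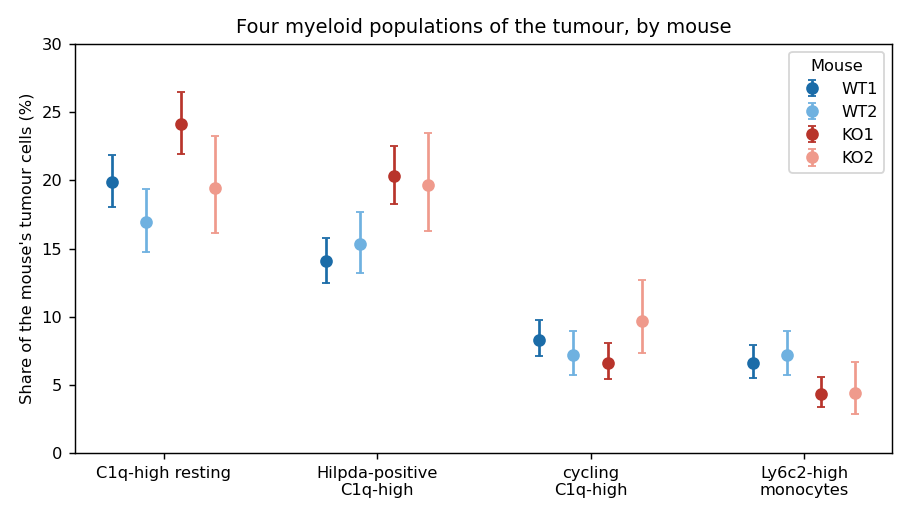
Share of each mouse's tumour cells (y axis, percent) in 4 populations (x axis), 1 point per mouse with its 95% Wilson interval. The resting macrophages range from 16.9% in WT2 to 24.2% in KO1, and the genotypes overlap; Hilpda-positive C1q-high cells lie at 14.1% and 15.4% in WT and 20.3% and 19.7% in KO.

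The members were set beside 3 other tumour populations within each mouse, as a description without a test, because measured genes had separated the cells. Levels were taken as the mean over cells of log2(1 + UMIs per 10000), and differences are on that scale.

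Against 264 Ly6c2-high monocytes, cells without C1qa or C1qb that are the blood-derived precursors of many tumour macrophages, 27 of 9296 genes were higher by at least 1 in all 4 mice (0.29%) and 33 were lower (0.355%). In any amount, 29.4% of genes were higher in all 4 mice and 18.3% lower. Of 11 complement genes 6 were higher in the macrophages in all 4 mice and 1 was lower (median 0.09). C1qc was 5.43 higher (5.21 to 5.54 over mice), Apoe 2.79 higher (2.47 to 3.06), Ms4a7 2.73, the tetraspanin gene Cd81 2.63, the lysosomal protease gene Lgmn 2.23 and the signalling regulator gene Rgs1 2.09. As C1qa and C1qb split the groups and C1qc moves with them (median r 0.76 and 0.78 in the members), the C1qc gap is no finding. Trem2, a lipid-sensing receptor, was 1.42 higher, and Arg1, which encodes the arginine-degrading enzyme arginase, 1.86. The MHC class II genes H2-Eb1, H2-Aa, H2-Ab1 and the invariant chain gene Cd74 were 3.28, 3.04, 2.74 and 2.89 higher. This gap varied widely, with Cd74 between 1.22 in KO2 and 4.60 in KO1. The monocytes numbered 112 in WT1, 72 in WT2, 59 in KO1 and only 21 in KO2. Of 10 MHC class II genes 7 were higher in all 4 mice and none lower (median 0.69), whereas of 13 MHC class I pathway genes none was higher and 5 were lower (median -0.21). Monocytes held more Plac8 (-4.50), Ly6c2 (-3.84, used to choose them), Chil3 (-2.69), the transcription factor gene Cebpb (-2.10), Il1b (-1.82) and the immediate early genes Nr4a1 (-1.82) and Junb (-1.78). Of 16 immediate early and stress genes, 14 were lower in the macrophages in all 4 mice, with a list median of -1.06. Of 12 lysosomal protease genes, 9 were higher and none lower in all 4 mice, with a median of 0.63. Interferon-inducible genes went with the monocytes: 14 of 16 type I interferon genes and 9 of 16 interferon gamma response genes were lower in the macrophages in all 4 mice. Median depth differed, at 17544 UMIs in the members and 9074 in the monocytes, and its part in these differences was not tested.

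Against 760 Hilpda-positive C1q-high cells, which met the same rule except for this gene of hypoxia and lipid droplets, no gene (0%) was higher or lower by 1 or more in all 4 mice among 9538. In any amount, 18.2% of genes were lower in the members in all 4 mice and 8.4% higher. Of 20 glycolysis and hypoxia genes, 19 were lower in the members in all 4 mice, with a median of -0.42. Of 15 lipid-associated macrophage genes, 14 were lower, with a median of -0.34. As Hilpda split the groups, lower levels of hypoxia and lipid genes in the members go with the choice and are no finding. The glucose transporter gene Slc2a1 differed by -0.51 (-0.63 to -0.26 over mice), and the hypoxia-induced mitophagy gene Bnip3 differed by -0.75. Arg1 differed by -1.20 (-1.58 to -0.42), the haem-degrading enzyme gene Hmox1 by -0.85, the osteopontin gene Spp1 by -0.85, the galectin gene Lgals3 by -0.79 and the lipid-binding protein gene Fabp5 by -0.66. Apoe (-0.47) and Trem2 (-0.35) were also lower in the members in all 4 mice. In the other direction, Cxcl9, the gene of a chemokine that attracts T cells, was 0.41 higher in the members (0.22 to 0.62), Ccl12 0.38, Ccl2 0.38 and Cxcl10 0.35, each in all 4 mice. The chemokine list, which holds Ccl2 and Ccl12 but not the other two, did not go this way as a whole, with 2 of 12 genes higher and 4 lower in all 4 mice and a median of -0.10. Of 16 interferon gamma response genes, 10 were higher in the members in all 4 mice and 2 lower, and Cd274, which encodes PD-L1, was among the lower ones (-0.30, -0.35 to -0.25). C1qc (0.00), Csf1r (0.06) and Havcr2 (-0.02) differed little in the mean. Median depth was 17544 UMIs in the members and 20895 in the Hilpda-positive cells, and its part in these differences was not tested.

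Against 349 cycling C1q-high cells, 9 of 9959 genes (0.0904%) were lower in the members by 1 or more in all 4 mice and none (0%) higher, while 33.5% were lower and 5.53% higher in any amount. The 9 were chromatin and microtubule genes of dividing cells: Stmn1 (-2.11), Hmgb2 (-1.54), 2810417H13Rik (-1.51), H2afz (-1.43), Tubb5 (-1.37), Hmgn2 (-1.22), Hmgb1 (-1.21), H2afv (-1.18) and Tuba1b (-1.16). They follow from the choice by cycle genes and are no finding. Il1b was 0.58 higher in the members (0.20 to 0.83) and Junb 0.43, in all 4 mice. Ccl2 (-0.59, -0.71 to -0.44) and Cd81 (-0.64) were lower in the members in all 4 mice. The cycling cells were the deeper ones, at a median of 27028 UMIs.

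**Figure D2:**
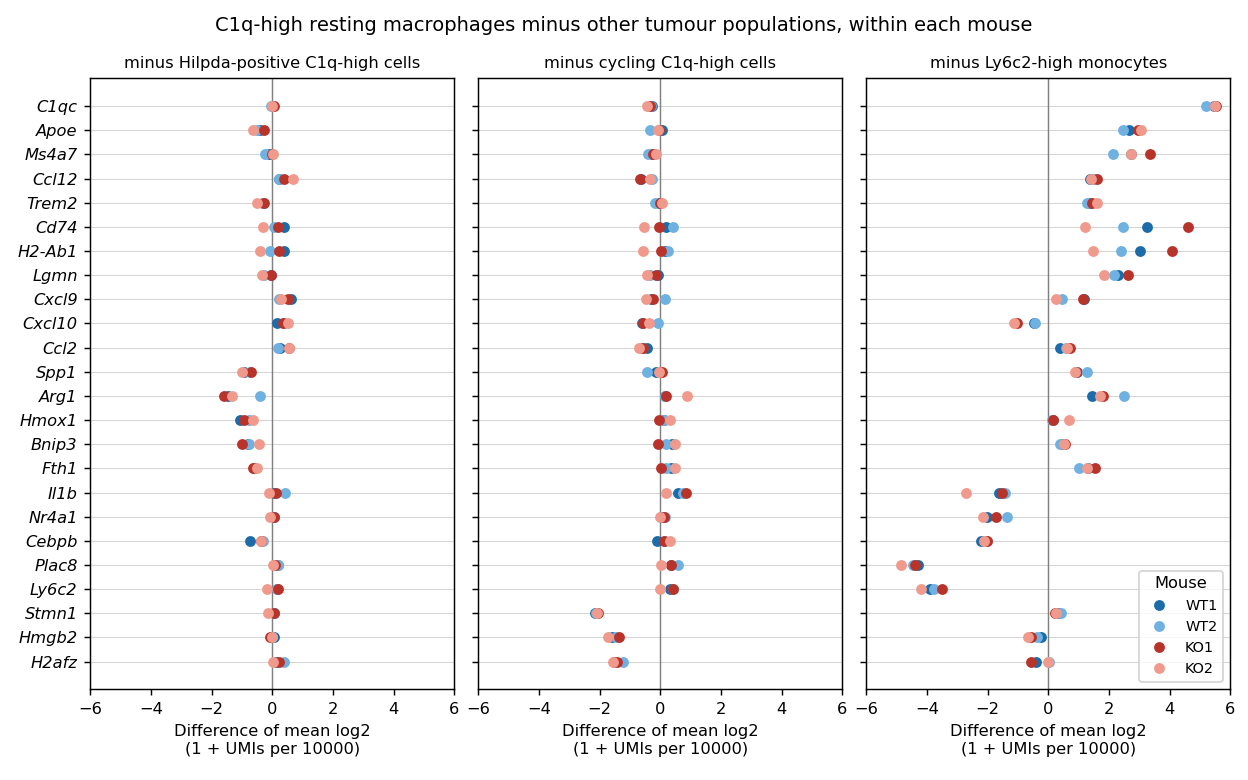
Difference of the mean log2(1 + UMIs per 10000) between C1q-high resting macrophages and each of 3 other tumour populations (x axis) for 24 genes (y axis), 1 point per mouse. C1qc is over 5 higher than in monocytes in every mouse, a gap that goes with the choice by C1qa and C1qb. Against Hilpda-positive cells C1qc is near 0, and Arg1 and Hmox1 lie to the left in all 4 mice.

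The members were not uniform. In the 792 members with at least 5000 UMIs, thinned to 5000 UMIs each, pairs of genes were correlated across the cells of each mouse, as a description. These cells share 4 samples and 2 libraries, and genes of the rule are bounded by it. The MHC class II genes moved as a block, with a median Pearson r over mice of 0.94 for H2-Ab1 and H2-Eb1 and 0.92 for Cd74 and H2-Aa. C1qa, C1qb and C1qc formed a second block (0.74 to 0.78), to which Ms4a7 (0.60 with C1qc) and Apoe (0.42 with C1qc) were attached. Between the blocks there was little relation: Cd74 and C1qa had -0.06. The monocyte-attracting chemokine genes Ccl2, Ccl7 and Ccl12 grouped together (0.49 to 0.60). Opposite to C1q lay the monocyte genes: Plac8 and Ly6c2 went together (0.65) and Plac8 had -0.49 and Il1b -0.45 with C1qc. Within these selected macrophages, therefore, lower C1q went with higher Il1b, Plac8, Ly6c2 and Ccr2. Arg1 went with Spp1 (0.26, 0.07 to 0.36 over mice) and Lyz2 (0.36), and against H2-Eb1 (-0.35).

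**Figure D3:**
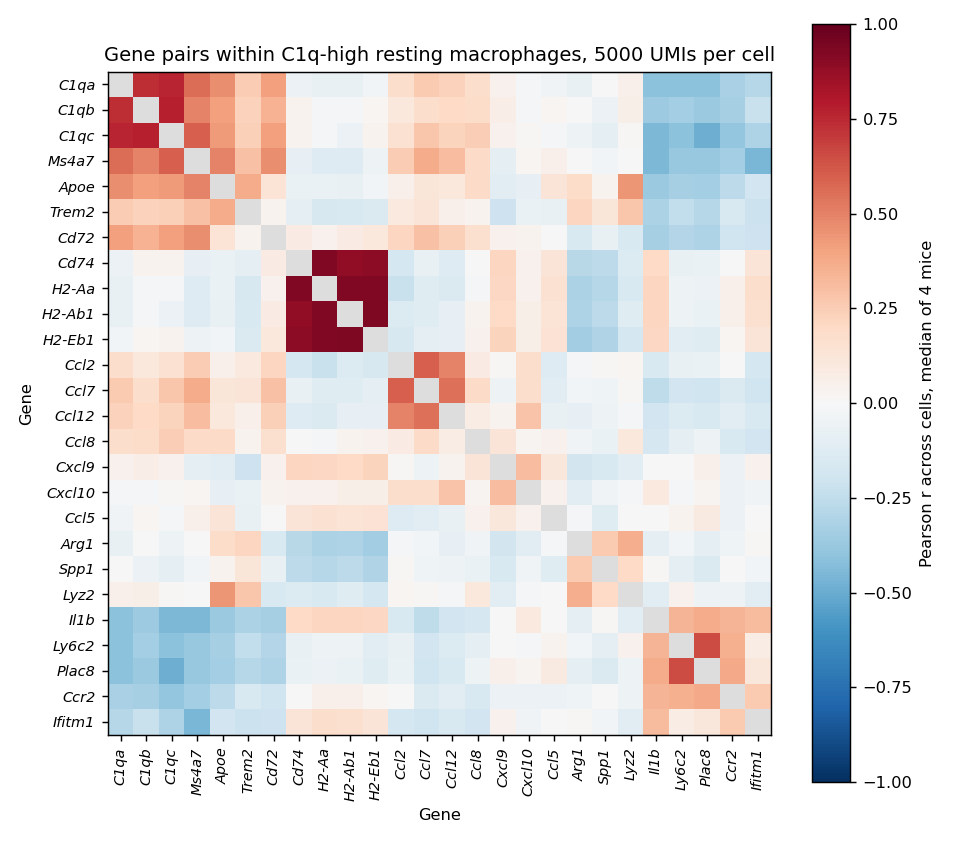
Pearson r across members of 1 mouse, median over 4 mice (colour), for pairs of 26 genes, with 5000 UMIs drawn from each of 792 cells. The red squares on the diagonal are the C1q genes with Ms4a7 and Apoe, the MHC class II genes, the Ccl2 group and the monocyte genes with Il1b, and the blue corner sets the monocyte genes against C1q.

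The Fano factor, the variance of a level divided by its mean, ranked which genes varied most from cell to cell within a mouse. Of the 15 highest genes, 8 were mitochondrial, with mt-Co1 at 279, and these fell to ranks 32 to 161 once cells under 5000 UMIs were left out and the rest thinned. Gm42418, which overlaps ribosomal RNA sequence, ranked first both ways. Cd74, Fth1, Lyz2, Ccl5 and Apoe stayed within the first 15 after thinning, with Fano factors of 54.2, 44.5, 30.3, 32.5 and 28.0. Malat1, a nuclear RNA, went from rank 6 to 26. Spp1, Ifitm1, H2-Aa, Cxcl10, H2-Eb1, Ccl12, Il1b, Ccl7 and Ly6c2 filled the other places. Ccl5, a chemokine best known from T cells, had a UMI in 63.4% of the members.

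The targeted gene came first in the comparison of genotypes. Havcr2 (chr11:46454935-46481255, plus strand, mm10) was found in 56.2% and 47.1% of the members of WT1 and WT2 and in 7.34% and 4.35% of those of KO1 and KO2. Its level was 0.641 and 0.563 in WT and 0.102 and 0.0337 in KO, so the groups were far apart, in the order the labels give. In lymph node B cells, which should lack it, 3 of 1588 cells (0.189%) held a UMI at a median depth of 3081.5. With 5000 UMIs per cell 30.4% and 23.4% of WT members held it, against 4.45% and 4.11% of KO members. On the log2 scale the difference was -0.47 (SE 0.04, limma, adjusted p = 2.87e-04). The 5′ reads do not show which exons the remaining transcripts held.

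Of 9143 genes tested in the members, 2 rose and 2 fell in KO at an adjusted p under 0.05 (limma, Benjamini-Hochberg), which is 0.0437% of genes, and 407 had an unadjusted p under 0.05. Replicates are 2 mice per genotype. The p-values rest on the spread between these 4 animals and on a spread pooled over genes of like level, with a median of 14.4 degrees of freedom. Without limma's trend, which sets the pooled spread by level, no gene passed, and Havcr2 had an adjusted p of 0.815. Besides Havcr2, the genes that passed with the trend were 2310031A07Rik, Rsrp1 and Lsp1. With the channel as a replicate block, which compares WT1 with KO1 and WT2 with KO2, 85 genes (0.93%) passed, 50 higher and 35 lower. That fit left 1 residual degree of freedom and took 1 spread for all genes of like level, so its p-values rest on the pooled spread.

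2310031A07Rik (chr11:46440362-46447248, minus strand) is a long intergenic non-coding RNA that starts 7.69 kb from Havcr2 and is transcribed away from it. It was found in 8.33% and 7.65% of WT members and 37.6% and 26.1% of KO members. Its level rose from 0.0484 and 0.0461 in WT to 0.333 and 0.269 in KO, with no overlap (log2 difference 0.23, SE 0.03, adjusted p = 0.0383). The neighbour of the targeted gene thus carried more RNA in both KO mice. Rsrp1 (chr4:134923592-134927671), which encodes an arginine and serine rich protein, had levels of 1.93 and 1.31 in WT and 3.59 and 3.12 in KO (0.76, SE 0.12, adjusted p = 0.0496). Lsp1 (chr7:142460809-142494867), an actin-binding protein of leukocytes, had levels of 1.91 and 1.87 in WT and 0.970 and 1.05 in KO (-0.41, SE 0.07, adjusted p = 0.0496). In each of these genes both KO mice lay on 1 side of both WT mice. Of all genes tested, 16.4% had both KO mice above both WT mice and 16% had them below. Lsp1 was also lower in the members than in monocytes (difference -1.86), and the summed monocyte markers were lower in KO. In the 584 members without a UMI of Ly6c2, Plac8, Chil3 or Vcan, the Lsp1 difference was -0.41 as before (adjusted p = 0.00784), and all 4 genes passed. In the 409 members that also lacked Ccr2, the Lsp1 difference was -0.29 and did not pass (SE 0.08, adjusted p = 0.316), nor did 2310031A07Rik (0.20, adjusted p = 0.0655), while Havcr2 (-0.32, adjusted p = 0.0147) and Rsrp1 (0.96, adjusted p = 0.00350) passed. Over these 409 members 67.7% of all genes were above 0.

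Under 22 other settings no direction of these 4 genes turned, and the call was lost under 2 for Havcr2, 12 for 2310031A07Rik, 11 for Rsrp1 and 14 for Lsp1. Many of these settings could not turn a direction. The block, the fit without trend and the changed detection filters leave the difference itself as it was. Leaving out 1 mouse cannot turn a gene whose genotypes do not overlap. Without WT2, Havcr2 alone passed, and the adjusted p was 0.467 for 2310031A07Rik, 1.00 for Rsrp1 and 0.317 for Lsp1. Without WT1, 36 genes passed, and without KO2, 9.

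**Figure D4:**
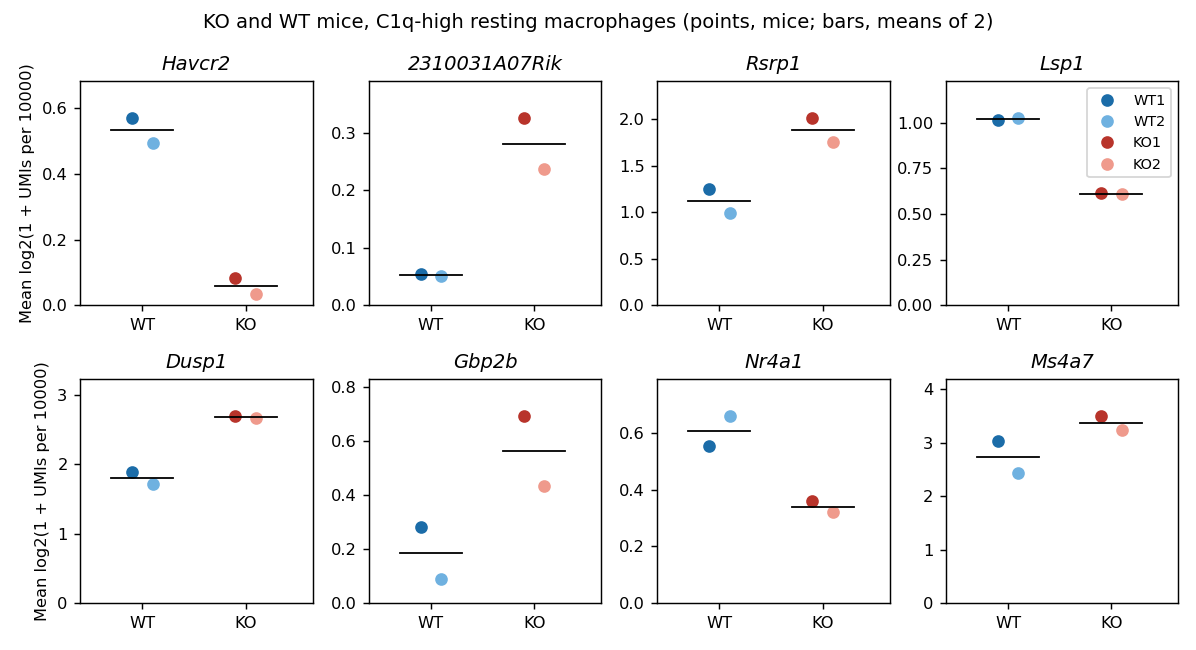
Mean log2(1 + UMIs per 10000) of 8 genes (y axes, each from 0) in the members of 2 WT and 2 KO mice (x axis), with a bar at the mean of each genotype. Havcr2, Lsp1 and Nr4a1 are lower and 2310031A07Rik, Rsrp1, Dusp1, Gbp2b and Ms4a7 higher in both KO mice; the first 4 panels passed the test without the block.

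By rule, the 5 genes above 0 and the 5 below 0 of lowest p were named, and the 6 of these that did not pass are given as values. Dusp1, a phosphatase that switches off MAP kinases, had levels of 5.15 and 4.89 in WT and 8.61 and 8.77 in KO (0.88, SE 0.15, adjusted p = 0.0649, or 8.87e-13 with the block). The interferon-induced GTPase gene Gbp2b had 0.418 and 0.138 in WT and 1.11 and 0.839 in KO (0.38, adjusted p = 0.196, or 8.41e-12 with the block). Nr4a1, an immediate early nuclear receptor, had 0.920 and 1.10 in WT and 0.509 and 0.451 in KO (-0.27, adjusted p = 0.196, or 9.67e-05 with the block). In the 409 members without any monocyte marker, 67.7% of all genes were above 0. There the Nr4a1 difference was smaller, at -0.11 (adjusted p = 0.737), whereas Dusp1 (1.00) and Gbp2b (0.43) passed (each adjusted p = 0.0432). Plcb4, a phospholipase gene, had 0.0122 and 0.00673 in WT and 0.0901 and 0.0973 in KO (0.08, adjusted p = 0.128, or 3.57e-04 with the block). Socs2, an inhibitor of cytokine signalling, differed by -0.10 (adjusted p = 0.296, or 4.96e-05 with the block) and Ltc4s, the leukotriene C4 synthase gene, by -0.13 (adjusted p = 0.386, or 9.78e-04 with the block). In all 6 the genotypes did not overlap. Among all genes tested, both KO mice lay above both WT mice in 16.4% and below them in 16%.

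No complement gene passed the test without the block. C1qa, used to choose the cells, had levels of 58.9 and 45.1 in WT and 58.8 and 55.4 in KO, and C1qb 77.9 and 63.2 against 79.7 and 74.0. C1qc had 55.5 and 45.6 against 58.4 and 56.2 (0.22, SE 0.18, adjusted p = 0.991, or 0.0330 with the block). Of 11 complement genes tested, 10 were above 0 in KO minus WT, with a median of 0.04, and 46.8% of all genes tested were above 0, with a median of -0.0023. The integrin genes Itgax and Itgam, subunits of complement receptors, had KO above WT in both mice, with differences of 0.25 and 0.16.

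Macrophage identity genes had a median of 0.02, with 10 of 18 above 0. Ms4a7, a membrane protein gene of mature macrophages, had levels of 13.4 and 7.91 in WT and 15.1 and 13.5 in KO (0.64, SE 0.22, adjusted p = 0.991, or 9.73e-06 with the block). In the members without any monocyte marker the Ms4a7 difference was 0.43 (SE 0.29, adjusted p = 0.789). Ccr2, the receptor that brings monocytes from the blood, had 1.74 and 3.68 in WT and 1.29 and 1.04 in KO (-0.68, adjusted p = 0.592, or 2.25e-18 with the block), and both KO mice lay below both WT mice. Plac8, another monocyte gene, had 2.61 and 2.75 against 1.97 and 1.22 (-0.22, adjusted p = 0.991, or 0.0134 with the block), whereas Ly6c2, with 1.80 and 1.96 against 2.26 and 0.241, overlapped. Ccr2 and Plac8 were chosen for mention after their values were seen. Csf1r, with 7.02 and 6.68 against 7.30 and 6.23, and Adgre1, with 2.22 and 1.47 against 2.08 and 2.49, did not pass the test either way.

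Genes of resident and scavenger macrophages differed widely in how many members held them. Of 9 tested, 7 were below 0 in KO minus WT, with a median of -0.07. Sepp1, the selenoprotein P gene, was found in 79.3% to 88.1% of a mouse's members, the scavenger receptor gene Msr1 in 68.8% to 78.8% and Stab1, another scavenger receptor gene, in 61.0% to 69.4%, and all 3 overlapped between genotypes. The mannose receptor gene Mrc1 had 0.330 and 0.915 in WT and 0.168 and 0.433 in KO (-0.19, adjusted p = 0.991, or 0.00881 with the block). Folr2, the folate receptor gene of resident macrophages, had 0.203 and 0.173 against 0.0650 and 0.166. Pf4 had 1.90 and 2.17 against 1.06 and 2.42. Ccl24 was found in 1.30% of the members, almost all from WT2, where its level was 0.509.

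Among 13 lipid-associated genes, 10 were above 0 with a median of 0.08. Apoe had levels of 70.3 and 56.4 in WT and 68.5 and 56.8 in KO, and Trem2 4.81 and 4.30 against 4.57 and 4.50, so neither separated the genotypes. Spp1 showed how the scale matters: its mean levels of 4.96 and 7.78 in WT and 5.04 and 7.90 in KO overlapped, while its mean log2 values of 1.31 and 1.83 in WT and 1.09 and 1.17 in KO did not (-0.44, adjusted p = 0.991, or 7.97e-05 with the block). It was found in 54.8% and 67.1% of WT members and 51.4% and 50.0% of KO members. Arg1 differed more between channels than between genotypes, with levels of 9.15 and 24.9 in WT and 7.62 and 14.6 in KO (-0.49, SE 0.41, adjusted p = 0.991, or 0.00371 with the block).

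Antigen presentation genes were mostly above 0. All 13 MHC class I pathway genes had KO above WT in the mean, with a median of 0.16. In 5 of them both KO mice lay above both WT mice, against 16.4% of all genes tested. No list was tested as a set. Of 10 MHC class II genes, 8 were above 0, with a median of 0.09. Cd74 had levels of 307 and 214 in WT and 368 and 266 in KO (0.32, SE 0.26, adjusted p = 0.991, or 3.72e-42 with the block), and H2-Ab1 55.6 and 39.9 against 64.0 and 45.5 (0.20, adjusted p = 0.991, or 0.285 with the block). Both genes were lower in channel 2 in each genotype, so the genotypes overlapped.

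Of 16 interferon gamma response genes, 15 were above 0, with a median of 0.17. Both KO mice lay above both WT mice in 6, against 16.4% of all genes tested. Cxcl9 had levels of 11.1 and 6.03 in WT and 13.3 and 10.1 in KO (0.58, SE 0.22, adjusted p = 0.991, or 4.96e-05 with the block). Cxcl10 had 5.30 and 5.37 against 7.33 and 4.85 (0.28, adjusted p = 0.991, or 0.0456 with the block). Cd274 had 0.589 and 0.586 against 1.03 and 0.821 (0.18, adjusted p = 0.991, or 0.103 with the block), and Nos2, the inducible nitric oxide synthase gene, 0.319 and 0.162 against 0.305 and 0.771. Type I interferon genes did not follow, with 9 of 16 above 0 and a median of 0.03. The list was chosen with results of these mice known, so its direction is no independent evidence.

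Of 12 chemokine genes 9 were above 0, with a median of 0.09. Ccl5 had 7.94 and 4.78 in WT and 12.4 and 7.26 in KO, and Ccl7 7.35 and 4.20 against 6.86 and 7.52 (0.46 and 0.32, each adjusted p = 0.991, or 8.15e-05 and 0.0332 with the block). Ccl2, with 6.21 and 5.60 against 6.12 and 6.65, Ccl12, with 7.14 and 9.61 against 6.93 and 8.40, and Ccl8, with 1.66 and 0.940 against 1.90 and 1.07, did not pass either fit.

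Inflammasome genes were of interest because the study's title names inflammasome activation. Of 17 tested, 13 were above 0, with a median of 0.03, and none passed the test. Il1b, the pro-interleukin-1 beta gene, had levels of 5.93 and 7.29 in WT and 5.53 and 3.99 in KO (-0.30, SE 0.13, adjusted p = 0.991, or 0.0761 with the block), with both KO mice below both WT mice. In the members without any monocyte marker the Il1b difference was 0.18 (SE 0.10, adjusted p = 0.749), where 67.7% of all genes were above 0. Il18 was found in 7.46% of members, with levels of 0.0615 and 0.0668 against 0.0409 and 0.0233. The sensor gene Nlrp3 had 0.393 and 0.398 against 0.352 and 0.429, and the protease gene Casp1 1.01 and 0.655 against 1.03 and 0.873. Txnip, an NLRP3-binding redox protein, was the list gene that passed with the block, at 1.71 and 1.24 in WT and 2.28 and 2.10 in KO (0.32, adjusted p = 0.991, or 0.00969 with the block). RNA levels do not measure inflammasome activation, which acts on proteins.

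Immediate early and stress genes held the widest spread, from -0.32 to 0.88, with 10 of 16 above 0 and a median of 0.11. In 9 both KO mice lay above both WT mice and in 3 below, against 16.4% and 16% of all genes tested. Hspa1a, a heat shock protein gene, had 0.106 and 0.189 in WT and 0.611 and 0.528 in KO, Klf6 1.97 and 1.52 against 2.66 and 2.52, and Ier2 2.53 and 2.84 against 1.83 and 1.95; with the block all 3 passed (adjusted p = 6.20e-04, 0.00757 and 0.0212), without it none. Without the block Hspa1a (0.15, adjusted p = 0.238) had a smaller p than Socs2 and Ltc4s and was the sixth of the genes above 0.

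Iron genes had 6 of 8 above 0 and a median of 0.18. The ferritin genes Fth1, with levels of 211 and 180 in WT and 226 and 265 in KO, and Ftl1, with 77.8 and 72.9 against 80.0 and 99.7, had both KO mice above both WT mice (0.32 and 0.26, each adjusted p = 0.991, or 7.71e-42 and 2.77e-06 with the block). Of 11 mitochondrial genes 10 were below 0, with a median of -0.13, and none separated the genotypes in both mice.

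Of 13 regulatory and checkpoint genes 9 were above 0, with a median of 0.04, and the list held Arg1. The lists with no gene past either fit were the 12 lysosomal proteases (median 0.07, 10 above 0), 13 efferocytosis genes (-0.02, 5 above 0), 16 type I interferon genes and 19 glycolysis and hypoxia genes (0.01, 10 above 0). Ligands reported for TIM-3 were measured too: Lgals9, the galectin-9 gene, had levels of 3.28 and 2.74 in WT and 2.75 and 2.09 in KO, and Hmgb1 2.89 and 2.91 against 2.56 and 2.51, with both KO mice below both WT mice on the log2 scale (-0.21 and -0.13, each adjusted p = 0.991). Ceacam1 was found in 4.76% of the members and was not tested.

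**Figure D5:**
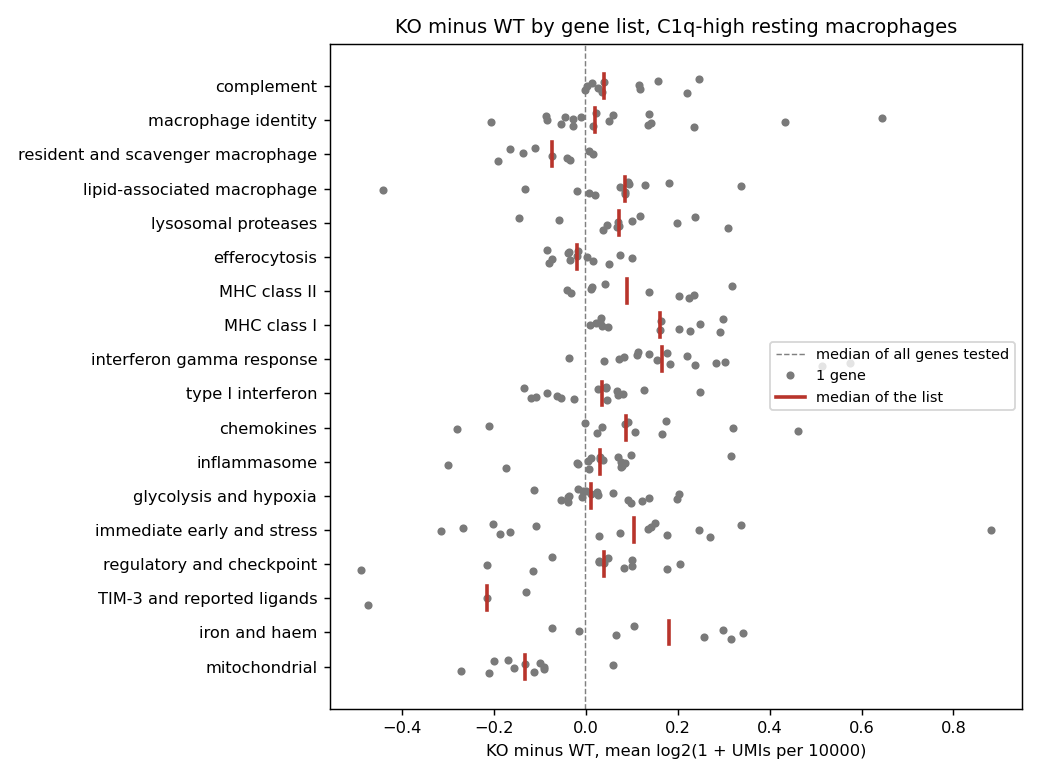
KO minus WT difference of mean log2(1 + UMIs per 10000) in the members (x axis) for the tested genes of 18 lists (y axis), with 1 dot per gene, a red bar at each list's median and a dashed line at the median of all 9143 genes. The interferon gamma response, MHC class I and iron lists lie to the right (medians 0.17, 0.16 and 0.18) and the mitochondrial list to the left (-0.13).

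Whether the genotype difference itself differed between the members and the other populations was tested gene by gene. It passed for 0 of 9538 genes against Hilpda-positive cells (0%), 0 of 9959 against cycling cells (0%) and 0 of 9296 against monocytes (0%), with 395, 486 and 372 genes at an unadjusted p under 0.05. With the block no gene passed against any of the 3. The Havcr2 difference was -0.47 in the members, -0.55 in Hilpda-positive cells, -0.57 in cycling cells and -0.28 in monocytes. In monocytes its level was 1.02 and 1.25 in WT and 0.716 and 0.690 in KO, and the difference between the members and the monocytes did not pass the test (-0.19, SE 0.10, adjusted p = 0.992). The 2310031A07Rik difference was 0.23, 0.23, 0.28 and 0.27 in the same order, and that of Rsrp1 0.76, 0.57, 0.66 and 0.60. Lsp1 had -0.41, -0.30, -0.39 and 0.04, and its gap to monocytes was -0.45 (SE 0.38, adjusted p = 0.992). Dusp1 had 0.88, 0.57, 0.90 and 0.69. The 5 genes had the same sign in all C1q-high populations, and no gene was shown to differ in the members alone.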

How the data were processed

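Single-cell 5′ RNA sequencing covered tumour, dLN and ndLN of 4 mice (12 samples in 2 channels). The submitters' processing notes name Cell Ranger 3.0.2 and mm10. Not given in the sources used here: filters on cells, the assignment of tags and any removal of doublets. The matrix that the authors deposited holds natural log values of UMIs scaled to 10000 per cell, plus 1 (12638 genes, 12458 cells), and a second file gives each cell's mouse and tissue. Back-transformed values were whole multiples of 1 UMI in 100% of cases (within 0.01), and no cell was removed.

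The members and gene lists were chosen with earlier results of these data known. As the deposited unit is a natural log, no count model was used. Means over cells of log2(1 + UMIs per 10000) per mouse went into limma 3.58.1 (R 4.3.3, trend, two-sided, Benjamini-Hochberg over genes with a UMI in 5% of the members, the 9 genes of the rule left out), at 0.05. Each mouse and population needed 20 cells. Other populations were compared within mice without a test. Genes are named by these rules: Havcr2, the 5 genes per direction with the smallest p, a list of macrophage genes, the genes separating populations and those with the highest Fano factors; list genes past the threshold with the block were added after their values were seen. The labels put WT1 with KO1 and WT2 with KO2 in 1 channel each, and the deviations of WT1 and KO1 from their genotype means had a correlation of 0.486. Channel was therefore the replicate block of an alternative fit, while the main fit held no block and ignored this pairing. In simulated members, 67% of genes changed 2-fold and 100% of those changed 4-fold were called, and 0.0895% of 8943 unchanged genes. The changed genes all had a mean level of at least 1 UMI per 10000. The spread between mice was assumed, was the same for all genes and held no channel effect. These rates therefore do not carry over to genes of lower level or wider spread. Intervals cover counting error only. Alternatives changed the filter, scale, thresholds, depth, cells and mice.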

Additional observations from a re-analysis of the deposited data

Results flagged for a closer look

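Cells past the expression thresholds of the rule also appeared in the lymph nodes, which no comparison used: 15 of 4671 dLN cells (3 and 0 in WT, 6 and 6 in KO) and 6 of 3266 ndLN cells (2 and 4 in WT, 0 and 0 in KO). They are given because no comparison used these tissues, and their number alone does not show what the cells are. In the 21 cells together C1qc had a level of 30.6 UMIs per 10000 against 54.8 in the tumour members, Apoe 49.3 against 65.8, Ms4a7 4.85 against 13.01 and Arg1 2.15 against 12.05. Vcam1, an adhesion molecule gene, had 2.19 against 0.141, with a UMI in 6 of the 21 cells and in 9.62% of the members. These cells are too few for a comparison of genotypes.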

How the results depend on the processing

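The count of genes past the threshold between KO and WT was 4, and it depended on the settings. It was 85 with the channel as a replicate block, where all 4 genes passed, and 0 without limma's trend (366 genes at an unadjusted p under 0.05) or without the detection filter (522). It was 1 on log2(1 + mean UMIs per 10000), 2 after centring on the median gene, 8 and 1 with C1q thresholds of 1.5 and 2.5, 2 with Hilpda-positive cells kept, 7 without members holding a UMI of another lineage and 1 without members with 5% or more mitochondrial UMIs. Among alternatives added after seeing the data, it was 1 without members under 5000 UMIs and 8 without members with a dendritic cell marker. It was 4 without members holding any monocyte marker, also added later, with 2 of the 4 genes kept. Leaving out 1 mouse gave 1 to 36 genes, where the lone mouse is taken to vary like the others. The other settings gave counts within 1.5 times of 4. Counts of differing genotype effects were 0 throughout, except 0 to 2 on leaving out 1 mouse against cycling cells, where the 2 came without KO1. The share difference of 3.39 percentage points ran from 1.04 to 5.74 on leaving out 1 mouse, and was -0.95 as a share of all C1q-high cells. Of 214 values of the 5 genes per direction with the smallest p, 147 kept their side of the threshold, 39 lost it and 28 gained it. None turned in direction, which many of these settings could not have shown, because they leave the difference unchanged or only leave out 1 mouse.

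Limits are the 2 mice per genotype, the unequal number of members (92 in KO2), the few monocytes of KO2 (21) and the choice by values of 0, which depends on depth. Genes with a UMI in under 5% of the members were not tested. The block fit rests on a pooled spread, and the fit without the block does so in part. The name resting follows from no Hilpda and at most 1 of 4 cycle genes above 0 and was measured no further.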
